A study of Homo sapiens with 9 samples.

Results

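The respiratory chain of human mitochondria is built from the products of 2 genomes, and the genes described here are those of both: rows of the deposited count table whose symbols belong to the subunits of complexes I to V. The symbols were matched by pattern (MT-ND, MT-CO, MT-ATP and MT-CYB; NDUFA, NDUFB, NDUFC, NDUFS and NDUFV with a number; SDHA to SDHD; UQCR; COX4 to COX8; ATP5F, ATP5M, ATP5P and ATP5I), without using any expression value. Of 205 rows that matched, 104 pseudogenes and 2 hyphenated symbols were dropped, which left 99 genes of 60649 in the table. Mitochondrial DNA encodes 13 of them, and the nuclear genome encodes 86. The rows dropped held at most 1.39 CPM (counts per 1000000 counts of the library after TMM scaling) in total in any library.

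The study depleted the aryl hydrocarbon receptor gene AHR in MDA-MB-231, a widely used human cell line that came from a triple-negative breast tumour, and sequenced RNA of proliferating cells. The 9 libraries were 3 replicates with the lentiviral control vector pLKO-GFP, 3 with the short hairpin construct shAHR#2 and 3 with shAHR#3, numbered as in the deposited labels. Transduced cells were selected with puromycin and pooled before use, so no group was a single clone, and every group had gone through infection and selection. Nothing in the sources used here says that replicates came from separate infections, so p-values measure the spread between these libraries, which may be technical.

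Electrons from NADH enter the chain at complex I (NADH dehydrogenase) and those from succinate at complex II (succinate dehydrogenase, which is also a tricarboxylic acid cycle enzyme). They pass through complex III (the cytochrome bc1 complex) to oxygen at complex IV (cytochrome c oxidase), and the proton gradient made on the way drives complex V, the ATP synthase. Complexes I, III, IV and V each combine subunits from both genomes, whereas all 4 subunits of complex II are nuclear. Mitochondrial DNA is transcribed as long precursors from both strands that are cut into shorter RNAs. Its genes share transcription and can differ afterwards by processing and stability, while each nuclear gene has a promoter of its own.

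Total counts were between 15991396 and 20374460 per library, and 14274 genes passed the filter on low counts and were tested. AHR itself had 114 to 121 CPM in the control libraries, 40.4 to 42.5 with shAHR#2 and 44.5 to 52.1 with shAHR#3, and was at 35.3% and 40.5% of the control mean. Mesenchymal genes of the line were high, with VIM at means of 2634 CPM for pLKO-GFP, 3875 for shAHR#2 and 3330 for shAHR#3. In the same order AXL was at 1219, 1406 and 1260 CPM and MSN at 686, 989 and 714. CD44 fell, at 811, 692 and 578 CPM. PGR and the T cell gene CD3E had no counts, and ESR1 stayed at or under 0.215 CPM in every library. ERBB2 was not absent, at means of 62.4 CPM for pLKO-GFP, 62.8 for shAHR#2 and 71.8 for shAHR#3. EPCAM was at 6.62, 6.06 and 6.11 CPM. The epithelial gene CDH1 was higher with each construct, at 0.909, 1.80 and 4.16 CPM. The leukocyte gene PTPRC was higher with each construct, at means of 0.119 CPM for pLKO-GFP, 1.38 for shAHR#2 and 1.00 for shAHR#3. So were the endothelial gene PECAM1, at 2.40, 11.2 and 12.2 CPM, and the collagen gene COL1A1, at 6.31, 10.0 and 11.3 CPM. The endothelial gene VWF, too low to be tested, was at 0, 0.326 and 0.288 CPM. The monocyte gene CD14 went the other way, at 0.957, 0.356 and 0.639 CPM. It was called lower with shAHR#2 and missed the threshold with shAHR#3. The fibroblast gene DCN had no more than 0.0512 CPM in any library. The part of other cell types in the results was not tested.

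All 13 mitochondrially encoded genes were tested, and 79 of the 86 nuclear ones. COX4I2, COX6A2, COX7A1 and COX8C, the isoforms known from lung, muscle or testis, had 0 counts in all 9 libraries. COX6B2 had at most 2 counts in a library, ATP5MGL at most 3 and COX7B2 at most 7, and these 3 were not tested either. A count of 0 in a library allows up to 3 counts, which covers counting error only. Apart from NDUFA7, with 3 to 19 counts in a library, every tested member had at least 81 counts in each library, whereas NDUFA7 reached 10 counts in all 3 libraries of the control group alone and passed the filter through it.

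Per kilobase of exon, the mitochondrially encoded genes were far more abundant than the nuclear ones. In the control libraries they had between 697 CPM per kb (MT-ND6) and 9654 (MT-ATP6), with a median of 5428, whereas the tested nuclear members ran from 0.630 to 338 with a median of 21.3. MT-CO1, which encodes the catalytic subunit of complex IV, was at 8454 CPM per kb. NDUFA4, a nuclear subunit of complex IV despite its name, was at 23.0. The highest nuclear member was ATP5F1B, the catalytic beta subunit of ATP synthase, at 338 CPM per kb, below even MT-ND6. The lengths are those of GENCODE, which merge all exons of a gene, so genes with long minor isoforms are placed too low by this measure.

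The mitochondrially encoded genes took 7.03%, 6.02% and 7.25% of all counts in the control libraries, so pLKO-GFP replicate 2 stood apart from the others of its group. With shAHR#2 the share was 6.44%, 6.41% and 6.75%, and with shAHR#3 it was 6.14%, 6.15% and 6.24%. The control range therefore contained every shAHR library, while the other 2 control libraries were above all 6 of them. On the TMM scale the summed CPM was 66279 ± 6715 (SD, n = 3) for pLKO-GFP, 67005 ± 1873 for shAHR#2 and 61706 ± 363 for shAHR#3, and there shAHR#2 replicate 3 (69165) was above pLKO-GFP replicate 1 (69093). The summed CPM of the nuclear members was much steadier, at 6321 ± 18.7 (SD, n = 3) for pLKO-GFP, 5973 ± 46.0 for shAHR#2 and 6071 ± 39.7 for shAHR#3, with no overlap between the control and either construct. In bulk RNA, fewer cells with a transcript and less of it per cell cannot be told apart.

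**Figure D1:**
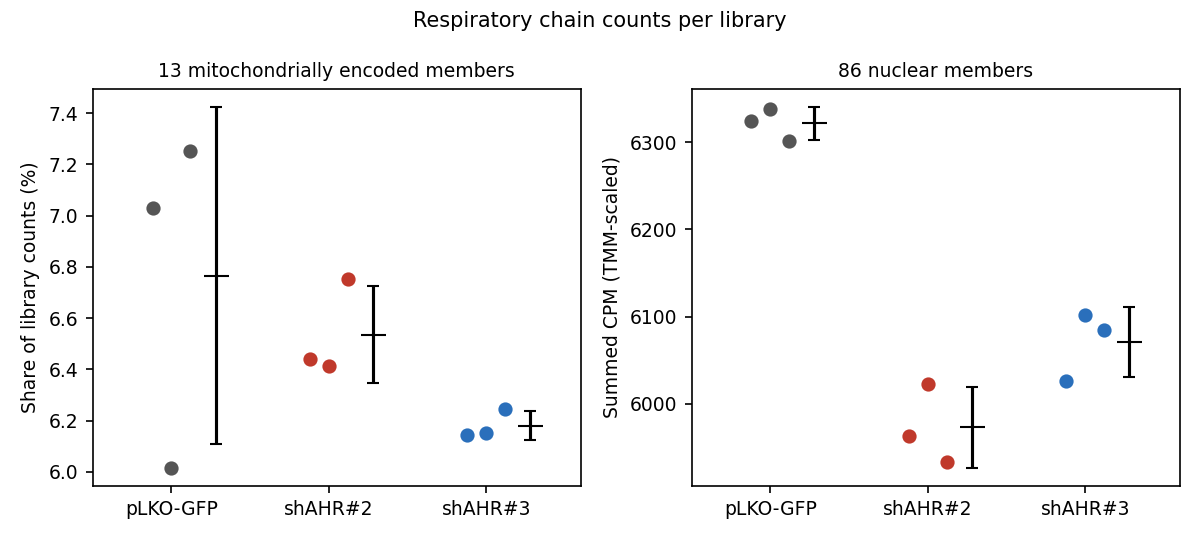
Share of library counts in the 13 mitochondrially encoded members (left, percent) and summed TMM-scaled CPM of the 86 nuclear members (right) in each of the 9 libraries; points are libraries, and the bar is the group mean ± SD (n = 3), with axes that do not start at 0. The mitochondrial share is 6.02% in pLKO-GFP replicate 2 against 7.03% and 7.25% in the other control libraries, and the nuclear sums of both constructs lie under those of the control.

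The ratio of mitochondrially encoded to nuclear member counts was 10.5 ± 1.09 (SD, n = 3) for pLKO-GFP, 11.2 ± 0.386 for shAHR#2 and 10.2 ± 0.0650 for shAHR#3. These ratios overlapped between the control and each construct, so a change in the balance of the genomes beyond the control spread was not detectable. Within the nuclear sum, the complex II genes were the lowest relative to the control, at 82.2% of its mean with shAHR#2 and 88.0% with shAHR#3, followed by the nuclear complex I genes, at 88.4% and 91.3%. Complex III was at 94.6% and 97.2%, and complex IV at 94.6% and 95.3%. The nuclear complex V sum was at 99.4% and 99.8%, and its libraries overlapped. They ranged from 2622 to 2659 CPM in the control libraries, from 2608 to 2637 under shAHR#2 and from 2612 to 2651 under shAHR#3. ATP5F1B alone made up a large part of that last sum, and without it the whole nuclear sum was at 90.3% of control with shAHR#2 and 92.4% with shAHR#3. With ATP5F1B the whole nuclear sum was at 94.5% and 96.0%, and leaving out a gene that rose had to lower these values.

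Among the mitochondrially encoded genes, 3 of 13 were called higher and 5 lower with shAHR#2 (edgeR's quasi-likelihood test, adjusted p under 0.05), where 32.6% of all tested genes were called higher and 33.2% lower. With library totals in place of TMM scaling the split was 1 higher and 5 lower, and with DESeq2 it was 1 higher (MT-ND5) and 2 lower (MT-ND2 and MT-ND3). With shAHR#3, 0 were called higher and 7 lower, where the background was 26.9% and 27.5%. At an unadjusted p under 0.05 the number higher with shAHR#3 was also 0. DESeq2 called 0 higher and 5 lower there, and with no filter on low counts 1 (MT-ND1) was higher and 7 lower. Between the constructs, 2 were higher and 6 lower with shAHR#3 than with shAHR#2, where 21.9% of all tested genes were higher and 20.4% lower. The number lower was 4 with DESeq2, 10 with no filter on low counts and 9 when only these groups were fitted, with 2 higher each time. For all these other settings the shares of all genes were not computed, so their counts have no background beside them. No member of the 13 changed by 2-fold: log2 fold changes ran from -0.22 to 0.30 under shAHR#2 and from -0.30 to 0.07 under shAHR#3. The medians over the 13 were 0.02 and -0.07, beside medians over all tested genes of -0.0032 and -0.000069.

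Leaving out pLKO-GFP replicate 2 changed these counts. With shAHR#2 they became 2 higher and 7 lower, where 30.4% of all genes were then called higher and 30.9% lower. The median of the 13 went to -0.07. With shAHR#3 they became 0 higher and 12 lower, with a median of -0.16, where 24.9% of all genes were then called higher and 25.1% lower. Between the constructs they became 2 higher and 9 lower, where 21.6% of all genes were higher and 20.1% lower. Without pLKO-GFP replicate 1, 3 were called higher and 3 lower with shAHR#2, and 0 higher and 4 lower with shAHR#3. Without pLKO-GFP replicate 3, 6 were called higher and 2 lower with shAHR#2, and 1 higher and 4 lower with shAHR#3. The shares of all genes were not computed without replicate 1 or 3, so these counts have no background beside them. The median with shAHR#2 was thus above or below 0 depending on the library left out. The median with shAHR#3 was below 0 in every such fit, from -0.16 to -0.05, and the number called varied from 4 to 12.

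MT-ND5, a proton-pumping core subunit of complex I (chrM:12337-14148), had 4272, 3586 and 4454 CPM in the control libraries, 4942, 4933 and 5269 with shAHR#2 and 4129, 4050.3 and 4014 with shAHR#3. All shAHR#2 libraries were above all control libraries, and the shAHR#3 libraries lay within the control range. The log2 fold change was 0.30 (SE 0.04, edgeR adjusted p = 4.40e-08) with shAHR#2 and -0.01 (SE 0.04, edgeR adjusted p = 0.795) with shAHR#3, and the constructs differed from each other by -0.31 (SE 0.04, edgeR adjusted p = 4.41e-08). MT-ND2, another membrane core subunit of complex I, went the opposite way. It had 5891, 5123 and 5953 CPM in the control, 4726, 4790.4 and 5067 with shAHR#2 and 5598, 5687 and 5671 with shAHR#3. The shAHR#2 libraries were below each control library, and MT-ND2 was 0.22 (SE 0.03, edgeR adjusted p = 1.72e-06) higher on the log2 scale with shAHR#3 than with shAHR#2. The ratio of MT-ND5 to MT-ND2 counts, which does not depend on scaling, was 0.724 ± 0.0241 (SD, n = 3) for pLKO-GFP, 1.04 ± 0.00802 for shAHR#2 and 0.719 ± 0.0161 for shAHR#3. This pair was chosen after the values were seen. It joins the largest rise and the largest fall among the mitochondrially encoded genes with shAHR#2, so its shift is no separate support. The control libraries ran from 0.70 to 0.75 in this ratio, although pLKO-GFP replicate 2 was low in both genes.

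MT-CYB, the only mitochondrially encoded subunit of complex III, had 4271, 3572 and 4327 CPM in the control, 3659, 3660.2 and 3834 with shAHR#2 and 3273, 3279 and 3362 with shAHR#3. Its log2 fold change was -0.13 (SE 0.04, edgeR adjusted p = 0.00426) and -0.30 (SE 0.04, edgeR adjusted p = 2.63e-08), and all shAHR#3 libraries were below the lowest control. MT-ATP6 and MT-ATP8, the membrane subunits of complex V, were called lower with both constructs, although the libraries of each overlapped the control. The differences were -0.13 (SE 0.04) and -0.21 (SE 0.04) for MT-ATP6 and -0.16 (SE 0.05) and -0.25 (SE 0.05) for MT-ATP8 on the log2 scale. With shAHR#2 the calls of MT-CYB, MT-ATP6 and MT-ATP8 were lost with DESeq2 and without pLKO-GFP replicate 3, those of MT-CYB and MT-ATP6 also without pLKO-GFP replicate 1, and that of MT-ATP8 also without shAHR#2 replicate 2. MT-ATP6 and MT-ATP8 are not independent, because MT-ATP6 starts before MT-ATP8 ends. The 46 bases they share (chrM:8527-8572 of GRCh38, plus strand) are shown because reads there match both genes. How the counting assigned such reads is not given in the sources used here. The start codon of MT-ATP6 and the stop codon of MT-ATP8 are in capitals.
MT-ATP8 and MT-ATP6 overlap: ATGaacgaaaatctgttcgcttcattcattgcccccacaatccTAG
That stretch is 22.2% of MT-ATP8.

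Complex IV has 3 mitochondrially encoded core subunits. MT-CO1 had 13411, 11455 and 14241 CPM in the control, 12994, 13283 and 13658 with shAHR#2 and 11881, 11860.0 and 12264 with shAHR#3. Its values with each construct overlapped those of the control, with log2 fold changes of 0.03 (SE 0.04, edgeR adjusted p = 0.513) and -0.12 (SE 0.04, edgeR adjusted p = 0.00955). MT-CO2 had 6641, 5845 and 6669 CPM in the control, 6602, 6487 and 6660.0 with shAHR#2 and 5447, 5529 and 5424 with shAHR#3, so that it was below each control library with shAHR#3 alone. The difference between constructs was -0.27 (SE 0.03, edgeR adjusted p = 3.74e-09). The shAHR#3 call of MT-CO1 was lost with DESeq2 and without pLKO-GFP replicate 1 or 3. MT-CO3 was called higher with shAHR#2, by 0.13 (SE 0.04), a call lost with DESeq2 and under library totals, and was at -0.02 (SE 0.04) with shAHR#3.

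Of the remaining complex I genes, MT-ND3 fell with both constructs, by 0.21 and 0.07 on the log2 scale. MT-ND1 rose with shAHR#2, by 0.16, a call lost with DESeq2 and under library totals. MT-ND4 fell with shAHR#3, by 0.10, a call lost with DESeq2, when only the groups compared were fitted and without pLKO-GFP replicate 1 or 3 or shAHR#3 replicate 1 or 2. The shAHR#3 call of MT-ND3 was lost without pLKO-GFP replicate 1 or 3 or shAHR#3 replicate 1 or 3. MT-ND4L missed the threshold in both comparisons at 0.05 (SE 0.04) and -0.02 (SE 0.04). MT-ND6, the only one of the 13 that is encoded on the light strand, had 416, 277 and 405 CPM in the control, 375, 333 and 395 with shAHR#2 and 383, 383 and 339.7 with shAHR#3. Its log2 fold changes of 0.01 (SE 0.07) and 0.01 (SE 0.07) became -0.16 and -0.16, both called lower, without pLKO-GFP replicate 2. Under the same omission MT-ND4 with shAHR#2 changed from 0.02 to -0.07, MT-ND1 with shAHR#2 missed the threshold at 0.05, and MT-ND5 with shAHR#3 was called lower at -0.10.

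**Figure D2:**
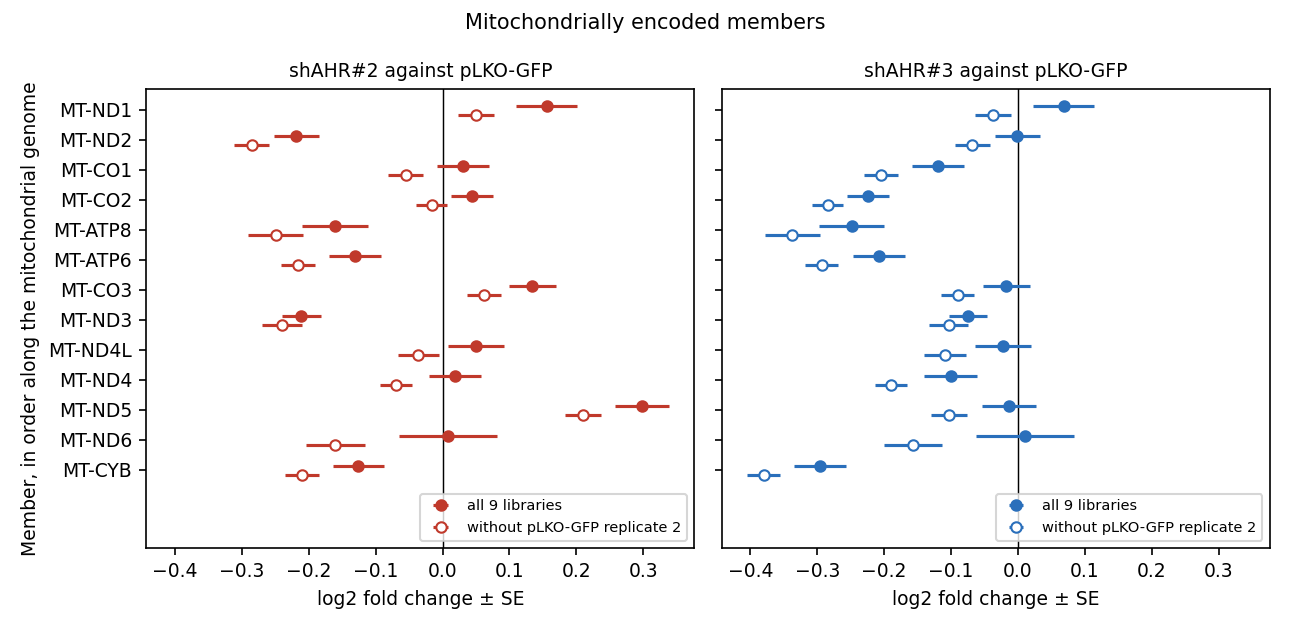
log2 fold changes against pLKO-GFP (x axis, ± SE) of the 13 mitochondrially encoded members in their order along the genome, with shAHR#2 (left) and shAHR#3 (right); filled points use all 9 libraries and open points leave out pLKO-GFP replicate 2. MT-ND5 is at 0.30 and MT-ND2 at -0.22 with shAHR#2, and the open points lie to the left of the filled ones.

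Shares of the 13 genes' own summed CPM sum to 100% in each library and so leave out the low total of pLKO-GFP replicate 2. In this view the control libraries were closer together for MT-ND5, MT-CYB and MT-ND4. For MT-ND3 they were further apart, with an SD of 0.131 on a mean share of 1.82%, against 40.6 on 1203 CPM. For MT-ND6, pLKO-GFP replicate 2 still stood apart, at 0.473% against 0.602% and 0.570%. This view was chosen after the values were seen. MT-ND5 took 6.19% ± 0.0722 (SD, n = 3) of the sum for pLKO-GFP, 7.53% ± 0.0746 for shAHR#2 and 6.59% ± 0.130 for shAHR#3. MT-CYB, which lies next along the same strand, took 6.12% ± 0.0540, 5.55% ± 0.00931 and 5.36% ± 0.0490. Here the shares of MT-ND5 were higher, and those of MT-CYB lower, in every library of both constructs than in any control library. Such separation was common among the 13 genes. With shAHR#2 the shares of 4 were above and of 5 below every control library, and with shAHR#3 those of 5 and 4. Shares are tied to each other by their sum, and the log2 fold change of MT-ND5 itself with shAHR#3 was -0.01 (SE 0.04). The shares of MT-ND4 hardly moved, at 16.5% ± 0.163, 16.6% ± 0.0591 and 16.6% ± 0.0502.

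Reads from the mitochondrial genome can also be placed on old copies of it in the nuclear genome. MTATP6P1 on chromosome 1 (chr1:633696-634376) is 98.5% identical to MT-ATP6 and averaged 902 ± 105 CPM (SD, n = 3) over the control libraries, 811 ± 25.4 over those of shAHR#2 and 790 ± 14.5 over those of shAHR#3. MTCO1P12 and MTND2P28 beside it are 98.6% identical to MT-CO1 and 98.4% identical to MT-ND2, at 165 and 152 CPM in the control. The division of reads between the copies is therefore uncertain, although the copies had far fewer counts than the members. MT-RNR2, the large mitochondrial ribosomal RNA, which is no member, averaged 11753 ± 1097 CPM over the control libraries, 17695 ± 490 over those of shAHR#2 and 13808 ± 689 over those of shAHR#3, in libraries made with an mRNA kit.

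The nuclear members moved more in one direction. With shAHR#2, 45 of 79 were called lower (57.0%, background 33.2%) and 11 higher (13.9%, background 32.6%), and 23 missed the threshold. With shAHR#3, 39 were called lower (49.4%, background 27.5%) and 7 higher (8.86%, background 26.9%). The median log2 fold change was -0.15 with shAHR#2 and -0.12 with shAHR#3, so the typical change was small. Both comparisons use the same control libraries and are not independent of each other. In the direct comparison of shAHR#3 with shAHR#2, which uses no control library, 16 were higher (20.3%, background 21.9%) and 8 lower (10.1%, background 20.4%), with a median of 0.03. Under library totals without TMM that split was 24 higher and 5 lower. The shares of all genes were not computed in that setting, so this split has no background beside it.

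**Figure D3:**
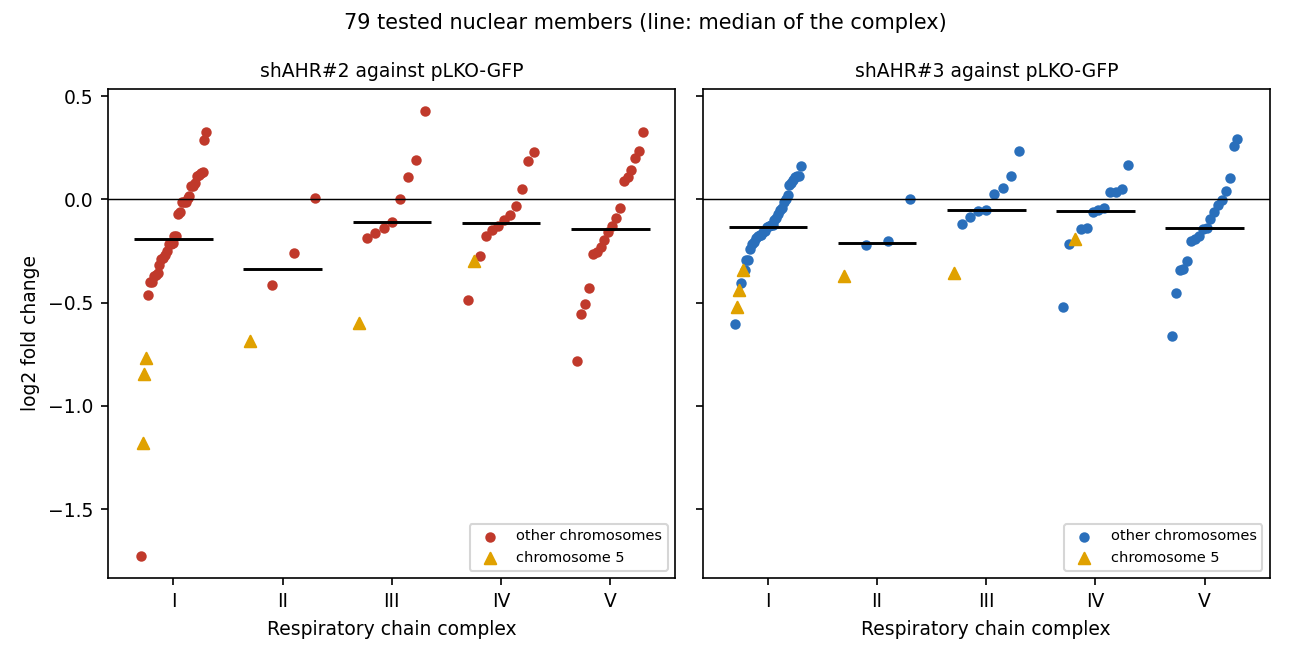
log2 fold change against pLKO-GFP (y axis) of the 79 tested nuclear members by complex (x axis), with shAHR#2 (left) and shAHR#3 (right); each point is a gene, triangles are genes of chromosome 5, and the line is the median of the complex. The median is below 0 in all 5 complexes in both panels, and the lone point at -1.72 in complex I is NDUFA7, which has few counts.

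By complex, the nuclear genes of complex I had 19 of 36 called lower and 3 higher with shAHR#2, and 19 lower and 2 higher with shAHR#3. Their medians were -0.19 and -0.13. Complex II had 3 of 4 lower and 0 higher with each construct. In complex III 5 of 9 were lower and 2 higher with shAHR#2, and 2 lower and 2 higher with shAHR#3. Complex IV had 7 of 12 lower and 2 higher, then 5 lower and 1 higher, and complex V had 11 of 18 lower and 4 higher, then 10 lower and 2 higher. Of all tested genes, 33.2% were lower and 32.6% higher with shAHR#2, and 27.5% lower and 26.9% higher with shAHR#3. Complex III with shAHR#3, at 22.2% lower and 22.2% higher, was under both of these shares. Rises were found in 4 of the 5 complexes with each construct. Complex II had none, but it has only 4 genes.

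Promoters of respiratory chain genes are known for binding sites of NRF1, of the ETS factor GABP (NRF2 in the older naming) and of YY1, so these motifs and that of AhR with its partner ARNT were searched. RefSeq windows on GRCh38.p14, from 250 bases before to 50 bases after the start, were found for 69 of the 86 nuclear members and 27305 genes in all, and both strands were read. The NRF1 motif, searched as GCGCA followed directly by its reverse complement, was in 4 of the 69 (5.80%) and in 1.36% of all windows. The ETS motif CCGGAAGT was in 10 (14.5%, all windows 4.44%), and the YY1 motif AAGATGGC in 11 (15.9%, all windows 3.03%). The AhR and ARNT motif TNGCGTG was in 3 (4.35%, all windows 5.51%), those of COX7A2L, NDUFA12 and NDUFB11. Among the windows of tested genes, the shares were 2.27% for NRF1, 8.86% for ETS, 5.46% for YY1 and 7.13% for AhR and ARNT. No matches of different motifs overlapped in the members' windows, and a match says only that these letters are present.

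The 100 bases before the start are shown for members whose values are given below, to let the windows with and without a motif be compared; capitals mark a match. They are ATP5F1C (chr10:7788077-7788176, plus strand), with an NRF1 match, SDHD (chr11:112086773-112086872, plus strand) and UQCRQ (chr5:132866542-132866641, plus strand), each with an ETS match, and NDUFS4 (chr5:53560539-53560638, plus strand) and COX7B (chrX:77899368-77899467, plus strand), with none of the 4 motifs in these bases. In the longer windows SDHD also has an NRF1 match further from the start and NDUFS4 a YY1 match after it.
ATP5F1C: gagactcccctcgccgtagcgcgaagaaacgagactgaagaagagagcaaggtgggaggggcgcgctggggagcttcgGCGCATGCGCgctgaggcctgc
SDHD: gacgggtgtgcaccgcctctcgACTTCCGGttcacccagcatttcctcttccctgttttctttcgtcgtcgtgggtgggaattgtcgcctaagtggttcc
UQCRQ: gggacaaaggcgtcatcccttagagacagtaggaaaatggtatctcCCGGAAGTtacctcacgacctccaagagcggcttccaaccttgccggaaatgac
NDUFS4: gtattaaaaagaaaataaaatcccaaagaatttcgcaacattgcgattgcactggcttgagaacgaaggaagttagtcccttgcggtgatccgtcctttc
COX7B: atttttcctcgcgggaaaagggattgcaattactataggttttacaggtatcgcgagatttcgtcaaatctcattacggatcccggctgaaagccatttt
All 5 genes were called lower with each construct, so windows with and without these letters occur among the members that fell.

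In complex I, the largest falls that were called with each construct were those of NDUFS4, NDUFS6, NDUFA2 and NDUFA1, all accessory subunits that surround the catalytic core. NDUFS4, which is needed for a stable electron-input arm and is mutated in Leigh syndrome, lies on chromosome 5 (chr5:53560633-53683338). It had 51.0, 48.4 and 49.1 CPM in the control, 22.5, 20.9 and 22.2 with shAHR#2 and 35.8, 34.1 and 33.6 with shAHR#3. The 3 groups did not overlap, and the shAHR#3 libraries lay between the others. The log2 fold change was -1.18 (SE 0.06, edgeR adjusted p = 2.42e-19) with shAHR#2 and -0.52 (SE 0.05, edgeR adjusted p = 2.51e-10) with shAHR#3, and 0.66 (SE 0.06, edgeR adjusted p = 4.19e-11) between the constructs. Against NDUFS1, the largest core subunit, the ratio of NDUFS4 counts went from 0.569 ± 0.00549 (SD, n = 3) to 0.251 ± 0.00926 and 0.371 ± 0.0105. This pair was chosen after the values were seen, so the ratio is no separate support for the fall.

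NDUFS6, a zinc-binding subunit of the same arm, had 47.4, 47.6 and 45.5 CPM in the control, 27.6, 27.9 and 27.1 with shAHR#2 and 32.7, 33.8 and 37.1 with shAHR#3. NDUFA2 had 29.8, 29.6 and 28.6 CPM in the control, 16.8, 14.1 and 18.0 with shAHR#2 and 23.1, 21.7 and 24.5 with shAHR#3. Both are on chromosome 5, and both were lowest with shAHR#2, intermediate with shAHR#3 and highest in the control without overlap. NDUFA1, on the X chromosome and essential for assembly of the complex, had 49.8, 47.5 and 48.2 CPM in the control, 36.3, 34.1 and 34.9 with shAHR#2 and 34.6, 39.9 and 35.3 with shAHR#3. Its log2 fold changes were -0.46 (SE 0.06, edgeR adjusted p = 6.59e-09) and -0.41 (SE 0.06, edgeR adjusted p = 9.66e-08), and the constructs overlapped each other.

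The 7 nuclear core subunits of complex I carry the flavin and iron-sulfur centres. With shAHR#2 they had 3 lower (42.9%) and 1 higher (14.3%), where 33.2% of all genes were lower and 32.6% higher. With shAHR#3 they had 2 lower and 1 higher, the share lower (28.6%) being near the 27.5% of all genes. The 29 accessory subunits had 16 lower (55.2%) and 2 higher (6.90%) with shAHR#2, and NDUFA7 is among the 16. With shAHR#3 they had 17 lower (58.6%, all genes 27.5%) and 1 higher (3.45%, all genes 26.9%). The median log2 fold changes were -0.18 and -0.07 for the core and -0.21 and -0.16 for the accessory subunits. NDUFA7, named here after its values were seen, passed the filter through the control group, where it is high, so its call with shAHR#2 (-1.72 (SE 0.46)) is no support for a fall. It had 19, 14 and 17 counts in the control, 7, 3 and 3 with shAHR#2 and 13, 8 and 13 with shAHR#3. Without it, 44 of 78 nuclear members were lower with shAHR#2 and 39 with shAHR#3. At this depth its change with shAHR#3, -0.60 (SE 0.38), was not detectable, and 32.5% of its exons are shared with other genes.

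The complex II genes did not move together. SDHA, the flavin-containing catalytic subunit (chr5:218303-257082), had 52.3, 50.4 and 52.2 CPM in the control, 32.4, 34.7 and 29.3 with shAHR#2 and 40.4, 38.6 and 40.9 with shAHR#3, with no overlap between any groups. Its log2 fold changes were -0.68 (SE 0.06, edgeR adjusted p = 4.02e-13) and -0.37 (SE 0.05, edgeR adjusted p = 3.52e-07). SDHB, the iron-sulfur subunit that binds SDHA, had 68.2, 65.3 and 64.3 CPM in the control, 65.1, 65.4 and 68.0 with shAHR#2 and 64.1, 68.4 and 65.3 with shAHR#3, and its log2 fold changes were 0.01 (SE 0.04) and 0.00 (SE 0.04). The 3 groups overlapped in SDHB. SDHC and SDHD, the membrane anchors, fell by 0.42 (SE 0.05) and 0.22 (SE 0.05) and by 0.26 (SE 0.04) and 0.20 (SE 0.04) on the log2 scale. SDHA has closely similar pseudogene copies, and 21.7% of its exons are shared with another gene of the same strand, so its level is less certain than those of the others.

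In complex III, UQCRQ, a small subunit beside cytochrome b, had 64.5, 73.4 and 74.2 CPM in the control, 45.5, 50.2 and 44.6 with shAHR#2 and 52.9, 57.5 and 55.7 with shAHR#3. The libraries of each construct were below all control libraries, and the log2 fold changes were -0.60 (SE 0.05, edgeR adjusted p = 2.05e-12) and -0.36 (SE 0.05, edgeR adjusted p = 2.23e-07). UQCRFS1, the Rieske iron-sulfur protein, fell by 0.16 (SE 0.04) and 0.09 (SE 0.04), the latter with overlapping libraries and an edgeR adjusted p of 0.0449 that missed the threshold in 4 other fits and in 7 of the fits that left out a library. Other subunits rose. UQCR11 had 40.2, 43.1 and 41.6 CPM in the control, 54.7, 57.9 and 55.5 with shAHR#2 and 48.3, 45.5 and 53.0 with shAHR#3, which made it the member with the highest fold change with shAHR#2, 0.43 (SE 0.05, edgeR adjusted p = 1.05e-08). The hinge subunit UQCRH rose by 0.19 (SE 0.04) and 0.11 (SE 0.04), while its near-identical retrocopy UQCRHL had at most 120 counts in a library.

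In complex IV, COX7B on the X chromosome had 70.2, 72.7 and 78.3 CPM in the control, 54.2, 57.2 and 46.4 with shAHR#2 and 50.5, 54.9 and 48.9 with shAHR#3. Both constructs lay below the control without overlap, at log2 fold changes of -0.49 (SE 0.06, edgeR adjusted p = 1.20e-09) and -0.52 (SE 0.05, edgeR adjusted p = 2.61e-10), and did not differ detectably from each other, at -0.03 (SE 0.06). NDUFA4 had 76.7, 83.8 and 78.1 CPM in the control, 63.4, 69.4 and 65.2 with shAHR#2 and 67.7, 68.3 and 69.8 with shAHR#3, for log2 fold changes of -0.27 (SE 0.04, edgeR adjusted p = 1.32e-06) and -0.21 (SE 0.04, edgeR adjusted p = 5.45e-05). COX7C fell by 0.30 and 0.19 on the log2 scale, and COX7A2L, known for its part in joining complexes III and IV, by 0.18 and 0.14. COX6A1 rose instead, with 108, 108 and 106 CPM in the control, 122, 127 and 127 with shAHR#2 and 117, 124 and 119 with shAHR#3.

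Complex IV subunits with tissue isoforms were represented by the widely expressed form. COX4I1 had 135 ± 5.54 CPM (SD, n = 3) in the control and was at 0.05 (SE 0.03) and 0.03 (SE 0.03), COX6B1 was at -0.03 (SE 0.04) and -0.04 (SE 0.04), and neither passed the threshold. COX7A2 fell by 0.10 and 0.15. COX8A fell with shAHR#2, by 0.15 (SE 0.04), and was at -0.06 (SE 0.04) with shAHR#3. The counterparts COX4I2, COX6A2, COX7A1 and COX8C had no counts in any group.

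In complex V, subunits of the catalytic head moved apart. ATP5F1B (chr12:56638175-56645984) had 745, 772 and 754 CPM in the control, 943, 959.7 and 946 with shAHR#2 and 919.7, 931 and 930.0 with shAHR#3. All libraries of both constructs were above the control, at log2 fold changes of 0.33 (SE 0.02, edgeR adjusted p = 1.69e-14) and 0.29 (SE 0.02, edgeR adjusted p = 7.09e-13). ATP5F1C, the gamma subunit that turns within the head, had 185, 186 and 183 CPM in the control, 131, 128 and 131 with shAHR#2 and 142, 154 and 143 with shAHR#3. It fell by 0.51 (SE 0.03, edgeR adjusted p = 3.70e-16) and 0.34 (SE 0.03, edgeR adjusted p = 2.49e-11) on the log2 scale. The alpha subunit ATP5F1A, named after its values were seen because it pairs with ATP5F1B in the head, fell by 0.23 (SE 0.03) and 0.20 (SE 0.03). The ratio of ATP5F1B to ATP5F1A counts, not corrected for length, was 1.71 ± 0.0283 (SD, n = 3) for pLKO-GFP, 2.52 ± 0.0709 for shAHR#2 and 2.41 ± 0.0409 for shAHR#3.

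ATP5MC2, 1 of 3 genes for the c subunit of the rotor ring, rose by 0.24 (SE 0.04) and 0.26 (SE 0.04). Before scaling, ATP5MC1 had 779, 934 and 974 counts in the control, 716, 686 and 631 with shAHR#2 and 691, 704 and 796 with shAHR#3. ATP5MC3 had 2077, 2346 and 2356, then 2370, 2001 and 1990, then 2360, 2461 and 2377. The 3 genes were not summed. The small membrane subunits ATP5ME and ATP5MK and the inhibitor ATP5IF1 fell. ATP5ME had 30.2, 29.6 and 32.9 CPM in the control, 18.1, 18.6 and 17.1 with shAHR#2 and 19.9, 19.9 and 18.8 with shAHR#3, for log2 fold changes of -0.78 (SE 0.07, edgeR adjusted p = 4.43e-12) and -0.66 (SE 0.07, edgeR adjusted p = 2.10e-10). Of its exons, 61.3% overlap MYL5 on the opposite strand, and whether the counting used strand is not given in the sources used here, so this value is uncertain. ATP5MK fell by 0.56 (SE 0.04) and 0.30 (SE 0.04). ATP5IF1, which inhibits the enzyme when it would run in reverse, averaged 17.7 ± 1.49 CPM (SD, n = 3) over the control libraries and fell by 0.43 (SE 0.09) and 0.45 (SE 0.09) on the log2 scale.

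**Figure D4:**
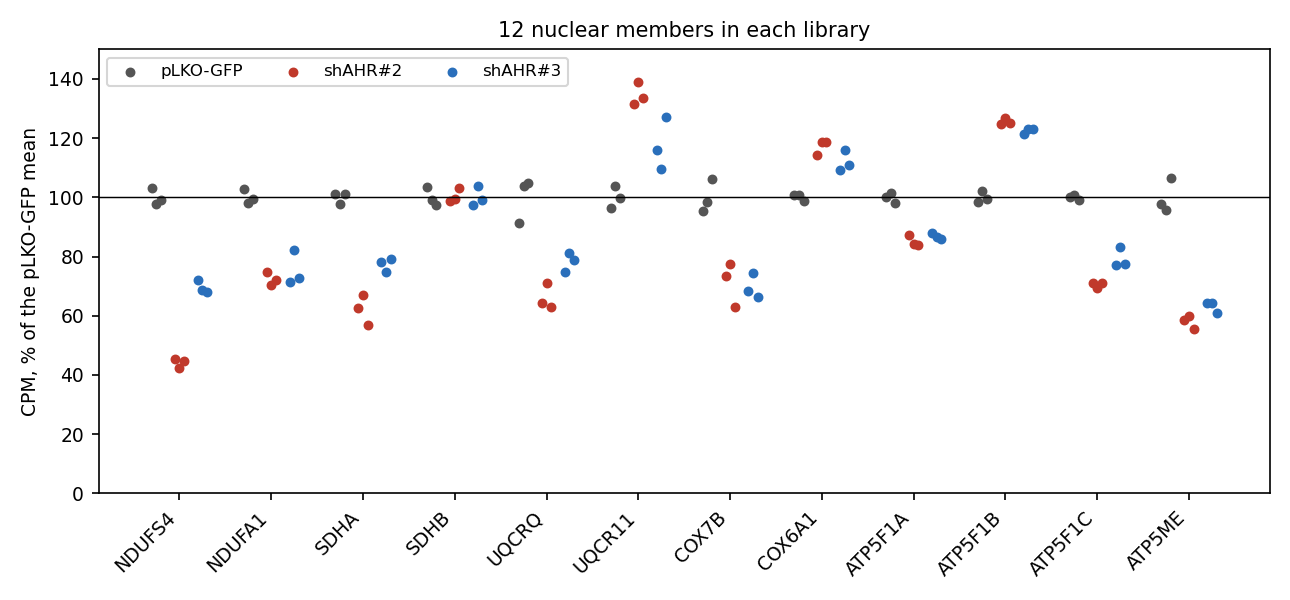
CPM of 12 nuclear members in each library as percent of the gene's pLKO-GFP mean (y axis, from 0), grouped by gene along the x axis and coloured by construct; each point is a library and the line is at 100%. NDUFS4 lies lowest of the 12 with shAHR#2, SDHB stays at the line in all 3 groups, and ATP5F1B lies above it while ATP5F1A and ATP5F1C lie below.

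Several members with the largest changes share a chromosome. All 6 nuclear members on chromosome 5 (SDHA, NDUFS6, NDUFS4, COX7C, UQCRQ and NDUFA2) were called lower with each construct, with medians of -0.73 and -0.36. However, genes of that chromosome were lower in general: 72.3% of its 656 tested genes were called lower with shAHR#2 and 59.5% with shAHR#3, with medians of -0.48 and -0.26. In the direct comparison all 6 were higher with shAHR#3 than with shAHR#2, as were 52.0% of the chromosome's genes. Of the 5 members on chromosome 12, ATP5F1B, ATP5MC2 and COX6A1 rose with each construct, on a chromosome whose tested genes had medians of 0.22 and 0.17. The part of a chromosome-wide shift in these members' values was not tested.

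Without the 6 genes of chromosome 5, 39 of 73 nuclear members were lower and 11 higher with shAHR#2, where 31.3% of genes on the other nuclear chromosomes were lower and 33.8% higher. With shAHR#3 33 were lower and 7 higher, where 26.0% were lower and 27.8% higher. The medians without them were -0.13 and -0.09. Set against the median of the other tested genes on its own chromosome, the fold change was below that median for 57 of 79 members with shAHR#2 and 59 with shAHR#3, over 22 chromosomes. The median difference over all 79 was -0.14 and -0.09 on the log2 scale. The 2 members on chromosome 14 and the 2 on chromosome 17 were below 0 in median, at -0.04 and -0.18 with shAHR#2, although the tested genes of those chromosomes had medians of 0.23 and 0.13. On chromosome 14, NDUFB1 was at -0.29 while ATP5MJ was above 0. The members' median with shAHR#2 was instead above that of the chromosome on chromosomes 12 (0.229 against 0.223), 15 (0.18 against 0.0049), 18 (0.05 against -0.14) and 20 (-0.26 against -0.31). It was below on the other nuclear chromosomes.

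**Figure D5:**
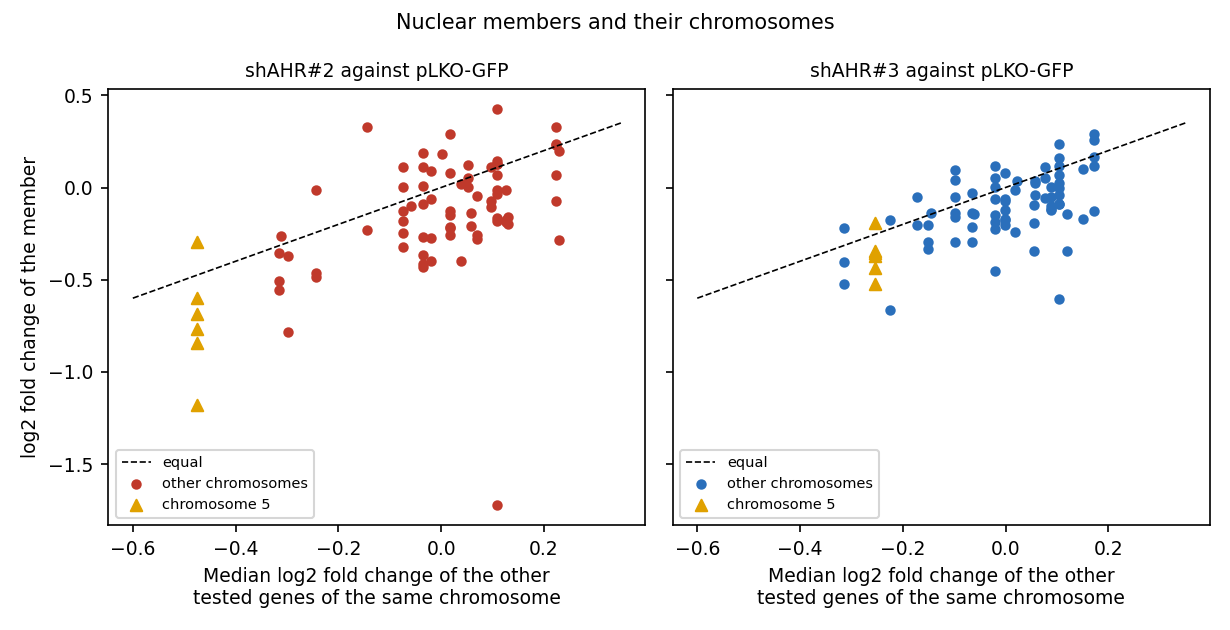
log2 fold change of each of the 79 tested nuclear members (y axis) against the median log2 fold change of the other tested genes on its chromosome (x axis), with shAHR#2 (left) and shAHR#3 (right); the dashed line marks equal values and triangles are members on chromosome 5. Most points lie under the line, 57 of 79 at left and 59 of 79 at right, also where the chromosome's median is above 0.

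Genes that serve the chain without belonging to the set were counted from lists, to be read against the shares of all tested genes, which were 33.2% lower and 32.6% higher with shAHR#2 and 27.5% lower and 26.9% higher with shAHR#3. Of 53 assembly factors, 24 were lower (45.3%) and 9 higher (17.0%) with shAHR#2, and 24 lower (45.3%) and 5 higher (9.43%) with shAHR#3. COA6 and COX18, which help to build complex IV, fell by 0.72 and 0.52 and by 0.69 and 0.57 on the log2 scale, and LYRM7, a complex III factor encoded on chromosome 5, by 0.66 and 0.52. COX10 rose by 0.18 and 0.26, COX19 by 0.21 and 0.37 and TIMMDC1 by 0.24 and 0.14. Among 78 mitochondrial ribosomal protein genes, 43 were lower (55.1%) and 13 higher (16.7%) with shAHR#2, then 38 (48.7%) and 6 (7.69%) with shAHR#3, with medians of -0.16 and -0.15. MRPL34 fell by 1.28 and 0.34, and MRPS35 rose by 0.44 and 0.33.

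Of 18 genes of the tricarboxylic acid cycle, 10 were lower with each construct (55.6%, all genes 33.2% and 27.5%) and 4 and 2 higher. Fumarate hydratase (FH), which acts next after complex II, fell by 0.89 and 0.65, and IDH2 by 1.48 and 0.28, whereas citrate synthase (CS) rose by 0.34 and 0.36. Of 21 tested genes for electron carriers, ubiquinone synthesis and chain subunits that the symbol patterns missed, 10 were lower (47.6%) and 6 higher with shAHR#2. With shAHR#3 6 were lower (28.6%, near the 27.5% of all genes) and 4 higher. Cytochrome c (CYCS), the carrier between complexes III and IV, fell by 0.41 and 0.37, whereas SQOR rose by 0.74 and 0.27. CYC1, a complex III subunit outside the patterns, was at 0.08 (SE 0.04) with shAHR#2 and was called higher with shAHR#3, at 0.18 (SE 0.04). NDUFAB1, a complex I subunit outside them, was called lower with shAHR#2, at -0.15 (SE 0.05), and was at -0.01 (SE 0.05) with shAHR#3.

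Of 19 genes that transcribe and copy mitochondrial DNA, 7 were lower (36.8%, all genes 33.2%) and 3 higher with shAHR#2, and 6 were lower (31.6%, all genes 27.5%) and 5 higher with shAHR#3, so the shares lower were close to those of all genes. POLRMT, the mitochondrial RNA polymerase, rose by 0.52 and 0.62, and the nuclease MGME1 fell by 0.53 and 0.38. Of 21 genes for processing and decay of mitochondrial RNA, 9 were lower (42.9%, all genes 33.2%) and 8 higher, then 6 (28.6%, all genes 27.5%) and 4. SUPV3L1, a helicase of the RNA degradation complex, fell by 0.52 and 0.29, and TRMT10C, part of the enzyme that frees tRNAs from the precursors, rose by 0.37 and 0.20. Of 15 tested regulators of mitochondrial biogenesis, 5 were lower (33.3%, all genes 33.2%) and 6 higher, then 4 lower (26.7%, all genes 27.5%) and 4 higher, so the shares lower were close to those of all genes. The coactivator gene PPARGC1A rose by 0.43 and 0.35, and the deacetylase SIRT1 fell by 1.06 and 0.75.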

How the data were processed

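RNA sequencing of 9 MDA-MB-231 libraries was analysed. The authors made libraries with a stranded mRNA kit, sequenced them from a single end and aligned the reads with STAR to GRCh38.p13. The values the authors deposited are raw counts, one whole number for each gene and library. The submitters' processing notes also name FastQC, featureCounts and Subread, while the annotation release and the strand setting of the counting are not given in the sources used here.

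Counts were analysed anew with R 4.3.3, edgeR 4.0.16 and DESeq2 1.42.0, and with Python 3.11.15. Of 60649 genes, 14274 passed filterByExpr at its settings of 10 (count) and 15 (total), and libraries were scaled by TMM. CPM are scaled by the same factors. One quasi-likelihood model of the 3 groups, without a replicate term, was fitted to all 9 libraries. P-values were adjusted over all genes by the Benjamini-Hochberg method, with calls at adjusted p under 0.05, and each SE is the fold change over the root of its F. Total counts per library ranged from 15991396 to 20374460, and the common coefficient of biological variation came to 2.96%. The chi-square per degree of freedom between replicates was 1.74 to 3.97, so every library was used as a sample of its own.

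Positions and exon lengths are those of GENCODE release 44 on GRCh38, and promoters those of RefSeq on GRCh38.p14. The members, lists and alternatives were chosen with earlier results of these data known. Named by rule were all mitochondrially encoded members, the SDH genes, members on chromosome 5, tissue isoforms, members with at most 3 counts in every library, and per nuclear complex up to 4 rises and 4 falls called with each construct. From each list up to 3 rises and 3 falls could be named. Alternatives were DESeq2, other scalings and filters, fits to the groups compared, a replicate block and leaving out each library. Leaving out the members of chromosome 5, leaving out NDUFA7 and the shares within the 13 genes were added after the data were seen.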

Additional observations from a re-analysis of the deposited data

How the results depend on the processing

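Scaling by DESeq2's size factors or by genes outside the mitochondrial genome kept every summary result and named call in direction and side of the threshold. DESeq2 called 3 of the 13 mitochondrially encoded genes with shAHR#2 (1 higher, 2 lower), with no share of all genes computed beside it. The nuclear median with shAHR#2 was -0.21 under library totals, -0.17 with no filter on low counts and -0.13 without chromosome 5. With shAHR#3 it was -0.15 under library totals, -0.11 at a mean of at least 50 counts, -0.12 when only the groups compared were fitted and -0.0930 without chromosome 5, and between the constructs it was 0.0699 under library totals. With counts outside the mitochondrial genome as denominator, the nuclear sum was 7036 CPM for pLKO-GFP, 6374 for shAHR#2 and 6597 for shAHR#3, and the mitochondrial share was 7.38% ± 0.779 (SD, n = 3) for pLKO-GFP, 7.15% for shAHR#2 and 6.71% for shAHR#3.

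Leaving out each library in turn gave between 4 and 12 mitochondrially encoded genes called with shAHR#3, nuclear medians from -0.13 to -0.11 with shAHR#3 and from 0.0273 to 0.0522 between the constructs. Over these fits MT-ND4 with shAHR#2 ranged from -0.0699 to 0.0725, MT-ND6 with shAHR#2 from -0.16 to 0.11 and MT-ND6 with shAHR#3 from -0.16 to 0.11. For each of these the lowest value came without pLKO-GFP replicate 2, and the highest came with another library left out. The cause was not tested. Of 120 values of named members per setting, 4 lost and 4 gained a call under library totals and 12 lost one with DESeq2.

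Libraries with the same replicate number did not deviate together (correlations from -0.126 to 0.102), so the numbers were not taken as pairs. A fit with the replicate number as a block called 45 nuclear members lower and 11 higher under shAHR#2, and 39 lower and 7 higher under shAHR#3. The shares of all genes were not computed for this fit, which changed 1 named call, MT-ND1 between the constructs (-0.09, edgeR adjusted p = 0.0470). With 3 libraries a group, changes of low members such as NDUFA7 are the least certain.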
